A study of Homo sapiens with 12 samples.

Results

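The genes examined were 34 of the endoplasmic reticulum (ER) that encode protein-folding chaperones, factors of ER-associated degradation and the sensors and transcription factors of the unfolded protein response. They were listed by symbol and make up 34 of the 19907 genes in the tables. The cells were MDA-MB-231, an established human line of triple-negative breast cancer, expressing either a glucocorticoid receptor whose phosphorylatable serine was changed to alanine (S134A-GR) or the wild-type receptor (WT-GR), and their mRNA was sequenced. All cells were starved for 18 h in IMEM with 1% DCC. They then received 1 µM dexamethasone (Dex), a synthetic glucocorticoid, or vehicle (Veh) for 6 h. The 4 groups of 3 libraries each were S134A-GR cells with Dex, S134A-GR cells with vehicle, WT-GR cells with Dex and WT-GR cells with vehicle. The labels do not say how the receptors were introduced, whether either line is 1 clone or what became of the line's own receptor, so the substitution and any other difference between the lines cannot be told apart. Nor do they give the origin of the 3 replicates as separate cultures or as repeats of 1 culture, so the spread behind the p-values may be technical.

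The ER folds proteins bound for membranes and secretion. The lumenal HSP70-class chaperone BiP, encoded by HSPA5, binds unfolded chains with J-domain partners and nucleotide exchange factors, while calnexin and calreticulin hold glycoproteins and disulfide isomerases form their cross-links. When unfolded protein accumulates, the sensors IRE1α (ERN1), PERK (EIF2AK3) and ATF6 are activated: IRE1α splices the XBP1 mRNA, PERK slows translation and favours ATF4, and ATF6 is cleaved into a transcription factor, so that chaperone and degradation genes rise. Spliced and unspliced XBP1 mRNA are not told apart by values per gene, and neither are sensor activity or cleavage.

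Promoters are shown for HYOU1, XBP1 and CRELD2, which were lower in S134A-GR cells, for HERPUD1, which was higher with Dex, and for HSPA5, the textbook target. Each is the 250 bases before the RefSeq gene start, written 5′ to 3′ on the gene's strand (GRCh38.p14). Capitals mark the fixed letters of ER stress response elements on either strand: ERSE (CCAAT, any 9 bases, CCACG), ERSE-II (ATTGG, any 1 base, CCACG) and UPRE (TGACGTGG). The HYOU1 window lies at chr11:119057206-119057455 on the minus strand and the XBP1 window at chr22:28800570-28800819 on the minus strand. The CRELD2 window is chr22:49918384-49918633 (plus strand), the HERPUD1 window chr16:56931892-56932141 (plus strand) and the HSPA5 window chr9:125241344-125241593 (minus strand).
HYOU1: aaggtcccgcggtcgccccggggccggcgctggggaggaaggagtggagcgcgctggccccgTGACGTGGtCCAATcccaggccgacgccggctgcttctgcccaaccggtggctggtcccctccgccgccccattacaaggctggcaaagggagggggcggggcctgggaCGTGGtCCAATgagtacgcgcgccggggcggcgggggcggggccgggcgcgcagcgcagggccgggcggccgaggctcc
XBP1: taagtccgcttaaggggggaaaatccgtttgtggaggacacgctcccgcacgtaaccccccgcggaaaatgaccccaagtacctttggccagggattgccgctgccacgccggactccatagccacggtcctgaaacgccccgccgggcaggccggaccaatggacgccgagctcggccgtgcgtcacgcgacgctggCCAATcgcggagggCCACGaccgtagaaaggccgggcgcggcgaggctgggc
CRELD2: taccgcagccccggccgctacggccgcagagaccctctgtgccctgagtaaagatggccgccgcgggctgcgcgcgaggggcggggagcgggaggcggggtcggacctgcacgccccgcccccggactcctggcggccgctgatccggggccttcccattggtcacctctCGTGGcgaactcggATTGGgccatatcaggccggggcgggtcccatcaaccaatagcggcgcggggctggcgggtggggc
HERPUD1: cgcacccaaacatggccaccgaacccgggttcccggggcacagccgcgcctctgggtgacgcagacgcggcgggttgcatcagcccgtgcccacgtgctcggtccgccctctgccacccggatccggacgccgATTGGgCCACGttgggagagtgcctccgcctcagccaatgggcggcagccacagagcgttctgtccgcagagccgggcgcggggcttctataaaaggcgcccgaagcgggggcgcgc
HSPA5: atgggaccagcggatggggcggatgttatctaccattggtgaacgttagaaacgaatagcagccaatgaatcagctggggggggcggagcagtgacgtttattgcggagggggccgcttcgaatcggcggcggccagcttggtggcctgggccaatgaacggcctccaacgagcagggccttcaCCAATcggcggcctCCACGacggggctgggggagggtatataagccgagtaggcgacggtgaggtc
In the HYOU1 window the UPRE letters overlap an ERSE-II match, and a further ERSE-II match stands nearer the start. Among the 31 members with a RefSeq promoter, 6 held an ERSE (CALR, CANX, CRELD2, HSP90B1, HSPA5 and XBP1; 19.4%), against 0.0806% of 27305 promoters. An ERSE-II was held by 3 members (HERPUD1, HYOU1 and SDF2L1; 9.68%), against 0.0513% of all, and the UPRE by HYOU1 alone, against 0.667% of all. The glucocorticoid response element (AGAACA, any 3 bases, TGTTCT) was found in none of the 31 windows and in 0.00366% of all. Its single arm TGTTCT was in none of the 31 and in 12.4% of all. A match of letters is a description and not a binding site, and no match says only that these letters are not in this window.

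The deposited values are normalized read counts per gene, and recovered depth ran from 56.4 to 100.6 M reads per library. All 34 members passed the filter on low values (at least 10 in at least 3 libraries) and were tested among 15957 genes. Of the lines' markers, VIM was at 366469 to 431198 in every library and ESR1 at 0 to 5.7, while EPCAM was at 315 to 436 in S134A-GR cells and 934 to 1093 in WT-GR cells. Blood cell markers were low, with PTPRC at 0 to 18.3 and CD14 at 2 to 54.9. The endothelial marker PECAM1 was not low, at 1079 to 2780. CDH5, also endothelial, was low in S134A-GR cells, at 13.2 to 47.5, and higher in WT-GR cells, at 165 to 420. The part of PECAM1 and CDH5 in the results was not tested. Over the members, the median SD on the log2 scale was 0.045 in S134A-GR Dex, 0.043 in S134A-GR Veh, 0.091 in WT-GR Dex and 0.057 in WT-GR Veh, so the third group was the most scattered. WT-GR Dex replicates 2 and 3 also held fewer genes with exactly 1 read (193 and 210, against 352 to 409 in the other libraries). Results are therefore also given without those 2 libraries, a fit that leaves 1 WT-GR Dex library and assumes that it varies like the others. Gene names of the Dex tables were repaired by line order, as described under the processing, and all Dex values rest on that repair.

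Together the 34 genes took 1.12 to 1.15% of all reads in S134A-GR Dex libraries, 1.12 to 1.16% in S134A-GR Veh, 1.2 to 1.25% in WT-GR Dex and 1.23 to 1.27% in WT-GR Veh. Per kb of exon, the calcium-binding chaperone CALR stood highest in every group, at 51140, 51501, 68845 and 65227 normalized reads per kb in the same order of groups. HSPA5, HSP90B1, CANX and P4HB filled the next 4 ranks in every group. The sensor ERN1 was lowest, at 58.4, 46.3, 69.2 and 57.3 normalized reads per kb, and EIF2AK3 and DNAJB9 stood just above it. The most abundant members were chaperones and isomerases, and 2 of the 3 sensors were the rarest or close to it.

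Most members stood lower in S134A-GR cells, with and without Dex, than in cells with the wild-type receptor. In vehicle, 26 of 34 passed the test, 23 lower and 3 higher in S134A-GR cells (limma, Benjamini-Hochberg adjusted p under 0.05 over all genes tested). Among all genes tested 50.5% passed, 26.7% lower and 23.8% higher. In Dex, 25 members passed, 20 lower and 5 higher, against 49.7% of all genes, 26.3% lower and 23.4% higher. The median log2 difference of the members was -0.26 in vehicle and -0.23 in Dex, beside 0.01 over all genes in both. Both comparisons called 16 members lower (20% of all genes) and 3 higher (16.7% of all genes), ATF6, CREB3 and WFS1. These comparisons share no library. In bulk RNA, fewer cells with a transcript and less of it per cell cannot be told apart.

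**Figure D1:**
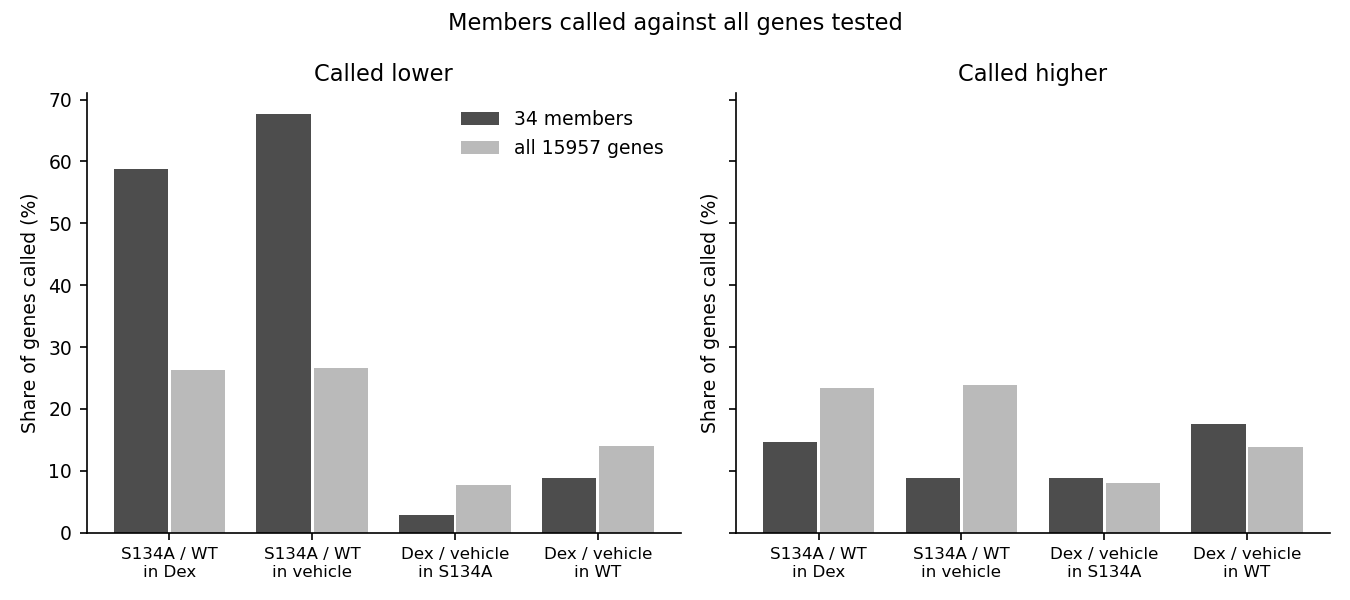
Share of genes called lower (left) and higher (right) in each comparison, in percent, for the 34 members (dark bars) and all 15957 genes tested (light bars). In S134A-GR against WT-GR cells, 58.8% of members were called lower in Dex and 67.6% in vehicle, against 26.3% and 26.7% of all genes.

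The differences were mostly small, and a few genes stood far from the rest. Calls with a log2 difference of 0.5 or more in size numbered 6 in Dex and 5 in vehicle, all of them lower, against 10.3% and 10.6% of all genes called lower by that much. Library values did not overlap between the genotypes for 25 members lower and 4 higher in vehicle (32.7% and 31.5% of all genes) and for 18 lower and 5 higher in Dex (27.1% and 25.3% of all genes). The split depended on scaling. With libraries scaled to their total reads alone, 17 members were lower and 5 higher in vehicle, and 14 lower and 6 higher in Dex. In vehicle that scaling ended the calls of HSPA5, HSP90B1, PDIA3, EDEM3, SEL1L and SEC24D. In Dex it ended those of DNAJB9, SDF2L1, PDIA4, PPIB, DERL2 and CREB3L1. Under that scaling 59.6% of all calls in vehicle were higher (47.2% in limma) and 64.9% in Dex (47% in limma), and the median of all genes in Dex was 0.12, beside a median of -0.12 over the members. Calls that held under every alternative numbered 19 of 26 in vehicle and 17 of 25 in Dex. Without WT-GR Dex replicates 2 and 3, the median log2 difference of the members in Dex was -0.24, beside -0.003 over all genes.

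**Figure D2:**
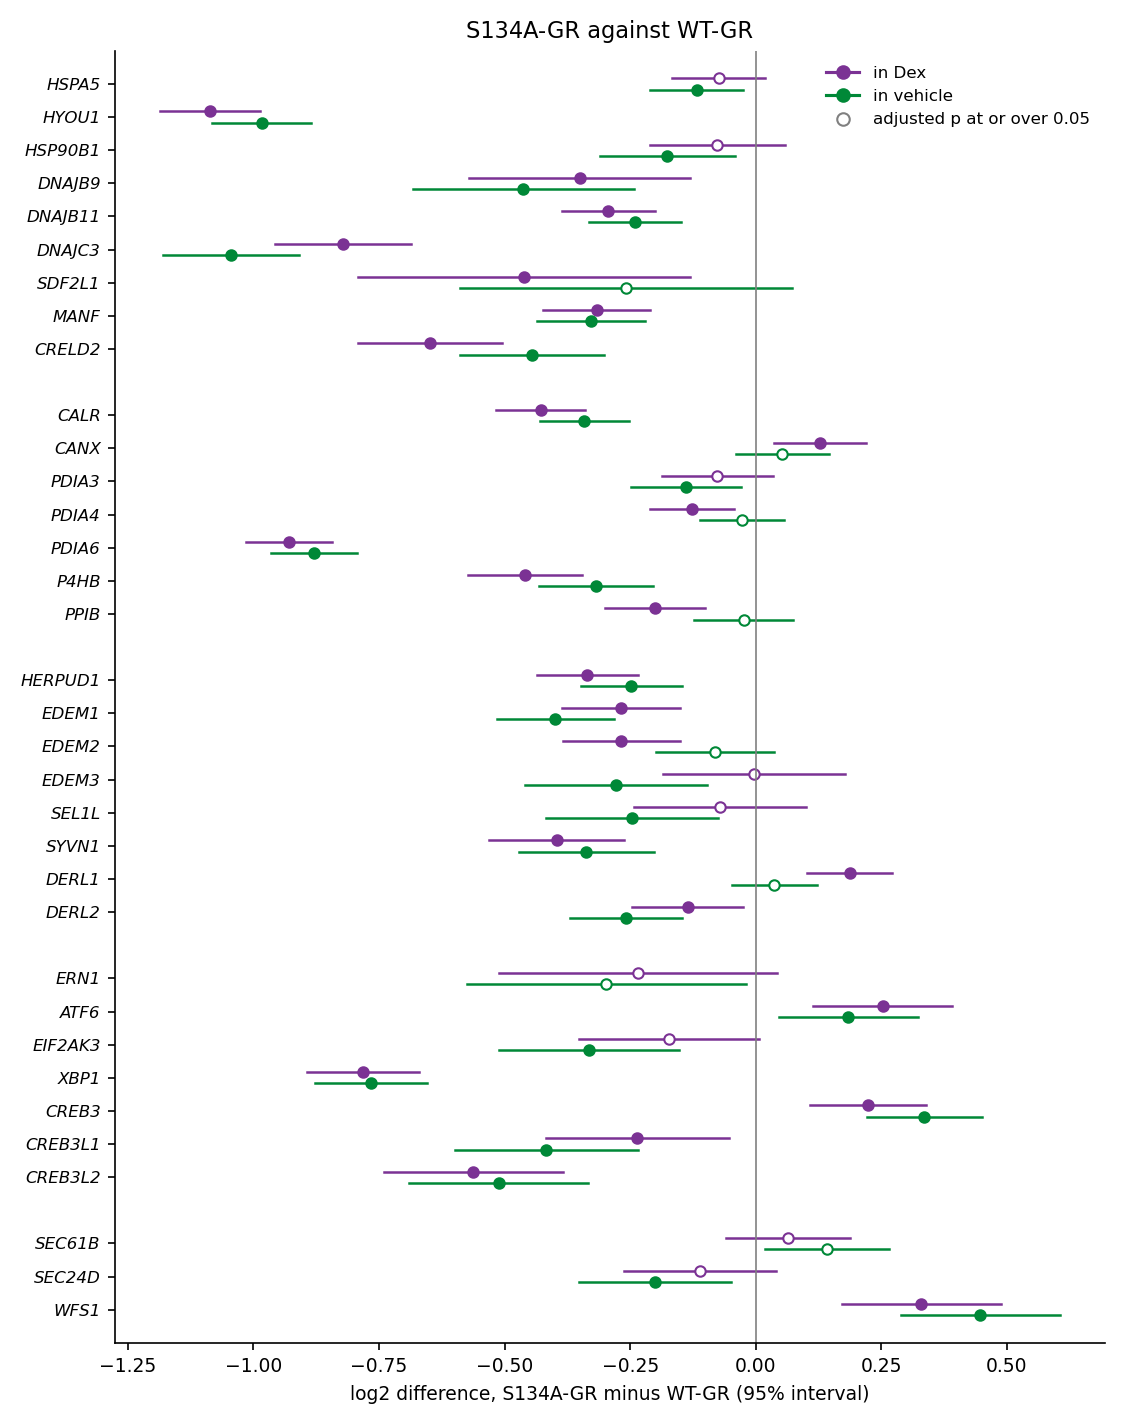
Log2 difference of S134A-GR minus WT-GR cells for each member, with 95% intervals, in Dex (purple) and in vehicle (green), grouped by role; filled points passed the test and open points did not. HYOU1, DNAJC3, PDIA6 and XBP1 lie farthest to the left, between -1.09 and -0.77, and WFS1 farthest to the right.

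Of the 9 lumenal chaperones of the HSP70 and HSP90 class and their co-chaperones, 8 were lower in S134A-GR cells in vehicle and 7 in Dex, and none was higher. Over all genes 26.7% were lower and 23.8% higher in vehicle, and 26.3% and 23.4% in Dex. HYOU1 (chr11:119044188-119057205), which encodes the large HSP70-related protein that exchanges nucleotide on BiP, had 22909, 23104 and 23457 normalized reads in S134A-GR Dex and 23079.5, 22533 and 23028 in S134A-GR Veh. It had 51677, 46639 and 49339 in WT-GR Dex and 47554, 45234 and 43065 in WT-GR Veh. All 6 S134A-GR libraries lay below all 6 WT-GR libraries and near one another. The group mean was 2.13 times lower in S134A-GR cells in Dex (log2 -1.09, SE 0.046, adjusted p = 1.24e-09) and 1.98 times lower in vehicle (log2 -0.98, adjusted p = 2.89e-09, limma). The promoter printed above for HYOU1 is the one with a pair of ERSE-II matches.

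DNAJC3 (chr13:95677139-95794988), a J-domain co-chaperone of BiP also known as an inhibitor of PERK, had 3683.5, 3565 and 3629.8 normalized reads in S134A-GR Dex and 2906, 3002 and 2951.5 in S134A-GR Veh. The WT-GR libraries held 5883, 6522 and 6858 with Dex and 6451, 6252 and 5604 with vehicle. The genotypes did not overlap, and the 3 S134A-GR Dex libraries also lay above the 3 S134A-GR Veh libraries. The difference between genotypes was -0.82 in Dex (adjusted p = 2.61e-07) and -1.04 in vehicle (adjusted p = 2.73e-08) on the log2 scale, in limma.

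CRELD2 (chr22:49918634-49927537), a lumenal protein with disulfide isomerase activity that is induced by ER stress, had 1792, 1934 and 1866 normalized reads in S134A-GR Dex and 1813.5, 1894 and 1726.5 in S134A-GR Veh. Its values were 3093, 3007 and 2679.9 in WT-GR Dex and 2359, 2442 and 2599 in WT-GR Veh. The S134A-GR libraries were all lower, with a log2 difference of -0.65 in Dex (adjusted p = 3.83e-06) and -0.45 in vehicle (adjusted p = 9.64e-05). MANF, a lumenal stress protein that can be secreted, was lower in both comparisons (log2 -0.32 in Dex, -0.33 in vehicle). So were the J-domain proteins DNAJB11 (-0.29 and -0.24) and DNAJB9 (-0.35 and -0.46). The DNAJB9 call in Dex was lost without S134A-GR Dex replicate 2 or 3 (adjusted p 0.053 and 0.0581) and without WT-GR Dex replicates 2 and 3 together (0.134).

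The central chaperone differed little. HSPA5 (chr9:125234853-125241343) had 115187, 109215 and 111387 normalized reads in S134A-GR Dex and 105595, 111091 and 107379 in S134A-GR Veh. It had 116832, 113073 and 123675 in WT-GR Dex and 115666, 119681 and 116265 in WT-GR Veh. The genotypes overlapped in Dex (log2 -0.07, 95% interval -0.17 to 0.02, adjusted p = 0.169) and did not overlap in vehicle (log2 -0.12, adjusted p = 0.0343). The vehicle call was lost under 7 alternatives: no filter on low values, scaling by total reads, the replicate block (adjusted p = 0.0614), and without S134A-GR Veh replicate 1 or 3 or WT-GR Veh replicate 1 or 2 (0.05 to 0.123). HSP90B1, the lumenal HSP90, had the same pattern, with -0.08 in Dex, not called (adjusted p = 0.33), and -0.18 in vehicle, called (adjusted p = 0.0309) and lost without the same 4 libraries in turn (0.0616 to 0.114). SDF2L1, which works with the J-domain protein DNAJB11, was called lower in Dex only, at -0.46 (adjusted p = 0.0233) beside -0.26 in vehicle (adjusted p = 0.18), and its libraries overlapped in Dex. The SDF2L1 call was lost without S134A-GR Dex replicate 1 or WT-GR Dex replicate 1 or 2 (adjusted p 0.0691 to 0.109).

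**Figure D3:**
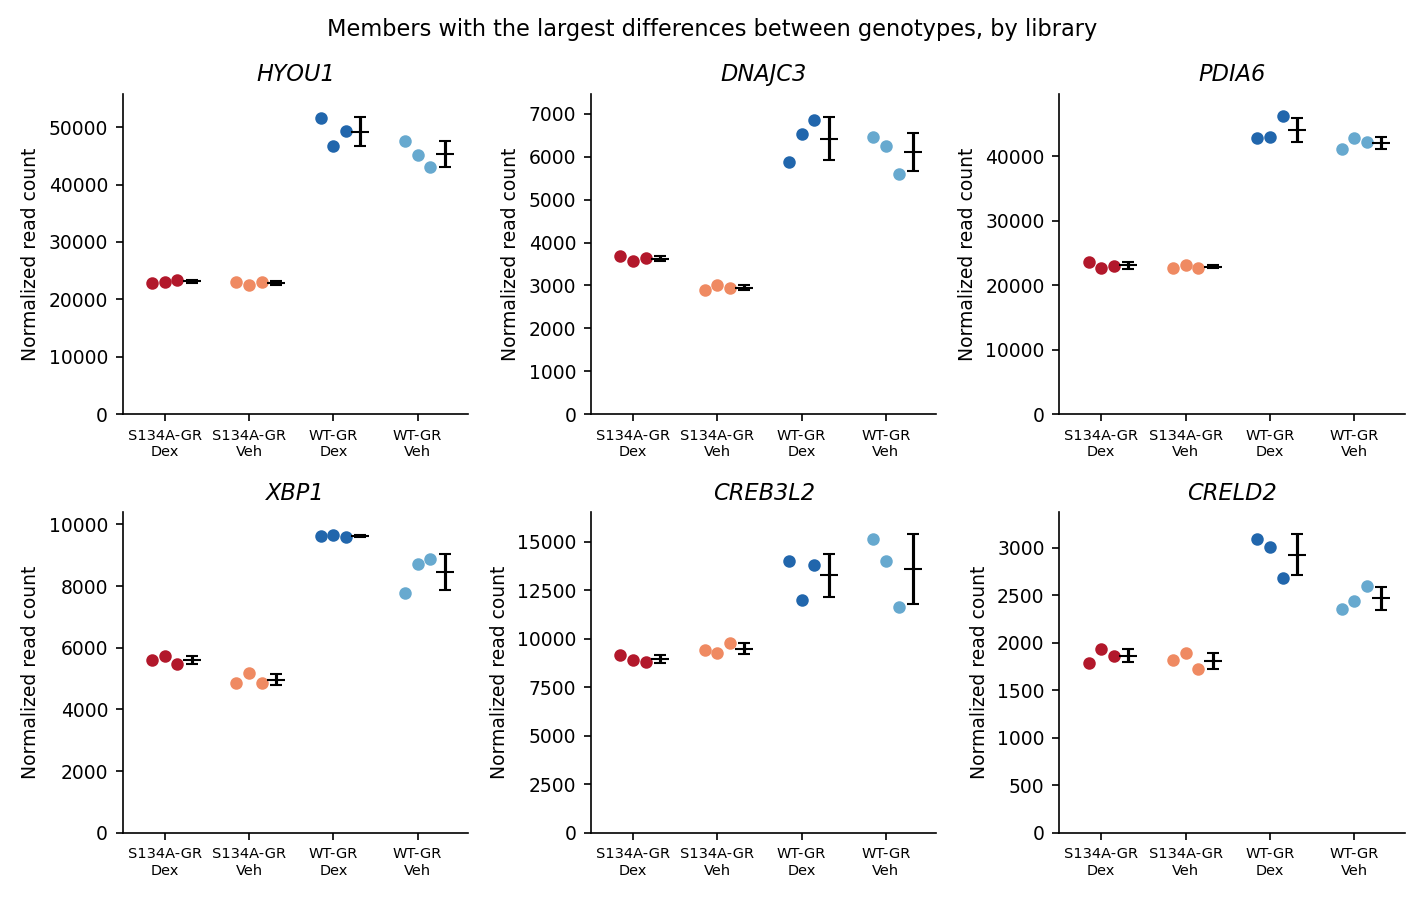
Normalized read count of HYOU1, DNAJC3, PDIA6, XBP1, CREB3L2 and CRELD2 in each library (points), with the group mean and SD (n = 3) beside them, in S134A-GR Dex, S134A-GR Veh, WT-GR Dex and WT-GR Veh. The 6 S134A-GR libraries lie below the 6 WT-GR libraries in every panel, with HYOU1 at 22533 to 23457 against 43065 to 51677.

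The lectin chaperones and disulfide isomerases were uneven. Of 7 members, 5 were lower and 1 higher in S134A-GR cells in Dex, and 4 were lower in vehicle. The shares over all genes were 26.3% lower and 23.4% higher in Dex, and 26.7% lower in vehicle. PDIA6 (chr2:10783391-10837712), a disulfide isomerase known to bind BiP and to act on IRE1α, had 23683, 22661 and 22956 normalized reads in S134A-GR Dex and 22743, 23167 and 22732 in S134A-GR Veh. It had 42869, 43043 and 46181 in WT-GR Dex and 41106, 42905 and 42225 in WT-GR Veh. The genotypes were far apart, with log2 differences of -0.93 in Dex (adjusted p = 1.3e-09) and -0.88 in vehicle (adjusted p = 2.13e-09). Exons of ATP6V1C2 on the opposite strand cover 25.2% of its exon bases, and that gene's highest library held 105 normalized reads. The isomerase P4HB was lower (log2 -0.46 in Dex, -0.32 in vehicle), and so was calreticulin (CALR; -0.43 and -0.34), all called.

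Calnexin (CANX), the membrane-bound partner of calreticulin, was on the other side, at 0.13 in Dex (adjusted p = 0.0227) and 0.05 in vehicle (adjusted p = 0.321). CANX averaged 169279 ± 2888 normalized reads in S134A-GR Dex and 154913 ± 6531 in WT-GR Dex (SD, n = 3 each), and its call was lost without S134A-GR Dex replicate 1 (adjusted p = 0.0708) and without WT-GR Dex replicate 1 or 2 (0.0594 and 0.0718). PDIA4 was called in Dex (log2 -0.13, adjusted p = 0.0146; 0.06 without S134A-GR Dex replicate 1) and not in vehicle (-0.03). The prolyl isomerase PPIB was also called in Dex (-0.20, adjusted p = 0.00268) and not in vehicle (-0.02). Scaling by total reads ended the PPIB call (-0.08, edgeR adjusted p = 0.166). PDIA3, the isomerase that works with both lectins, was called in vehicle (-0.14, adjusted p = 0.0365) and not in Dex (-0.08), and the call was lost without S134A-GR Veh replicate 1 or 3 or WT-GR Veh replicate 2 or 3 (0.081 to 0.135). Exons on the opposite strand cover 27.2% of PPIB (SNX22, at most 382 normalized reads) and 14.8% of PDIA3 (ELL3, at most 654), and the strand setting of the counting is not given.

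Among 8 factors of ER-associated degradation, which send misfolded proteins to the proteasome, 5 were lower and 1 higher in S134A-GR cells in Dex. In vehicle 6 were lower. The shares over all genes were 26.3% lower and 23.4% higher in Dex, and 26.7% lower in vehicle. SYVN1, the ubiquitin ligase of the main degradation complex, averaged 4958 ± 320.6 and 4638 ± 155 normalized reads in S134A-GR Dex and Veh, against 6528 ± 541 and 5857 ± 39.5 in WT-GR Dex and Veh (SD, n = 3 each). Its log2 difference was -0.40 in Dex (adjusted p = 0.000152) and -0.34 in vehicle (adjusted p = 0.000518). EDEM1, which recognises trimmed glycoproteins, was lower (log2 -0.27 in Dex, -0.40 in vehicle), and so was HERPUD1 (-0.34 and -0.25), all called.

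The rest of the degradation group was called in part. SEL1L, the partner of SYVN1, was lower in vehicle (log2 -0.25, adjusted p = 0.0191) and stood at -0.07 in Dex without a call. The vehicle call of SEL1L was lost without S134A-GR Veh replicate 1 or WT-GR Veh replicate 1 or 2 (adjusted p 0.0591 to 0.094). EDEM3 was called in vehicle (-0.28, adjusted p = 0.0138; 0.0686 and 0.0544 without WT-GR Veh replicate 1 or 2) and not in Dex, where its 95% interval was -0.18 to 0.18. EDEM2 was called in Dex (-0.27, adjusted p = 0.0011) and not in vehicle (-0.08). DERL2, a channel-forming derlin, was lower in both (-0.14 and -0.26), and its Dex call was lost in 11 alternatives, among them S134A-GR Dex replicate 2 or 3 or WT-GR Dex replicate 2 left out (adjusted p 0.0857, 0.151 and 0.175) and WT-GR Dex replicates 2 and 3 left out together (0.404). DERL1, its relative, was higher in Dex (0.19, adjusted p = 0.0015) and not called in vehicle (0.04).

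The sensors and transcription factors divided. XBP1 (chr22:28794560-28800569), the transcription factor whose mRNA IRE1α splices, had 5595, 5744 and 5467 normalized reads in S134A-GR Dex and 4859.8, 5173 and 4861 in S134A-GR Veh. WT-GR libraries held 9630.3, 9664 and 9596 with Dex and 7782, 8709 and 8873 with vehicle. No library of one genotype reached the other, and the log2 difference was -0.78 in Dex (adjusted p = 7.33e-08) and -0.77 in vehicle (adjusted p = 7.88e-08, limma). CREB3L2 (chr7:137874979-138002086), a membrane-bound transcription factor that promotes secretory transport, had 9189, 8881 and 8817 normalized reads in S134A-GR Dex and 9438, 9245 and 9784.5 in S134A-GR Veh. It had 13997, 11986.5 and 13823 in WT-GR Dex and 15168, 14032 and 11633 in WT-GR Veh, the last group spreading widely. The S134A-GR libraries were again all lower (log2 -0.56 in Dex, adjusted p = 8.5e-05, and -0.51 in vehicle, adjusted p = 0.000176). CREB3L1, of the same family, was lower (log2 -0.24 in Dex, -0.42 in vehicle), and its Dex call was lost without WT-GR Dex replicate 1 or 2 or S134A-GR Dex replicate 1 or 3 (adjusted p 0.0622 to 0.147).

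The 3 stress sensors did not share a direction. ATF6 (chr1:161766320-161964070) had 12673, 11886 and 11952 normalized reads in S134A-GR Dex and 11550.1, 12292 and 12249 in S134A-GR Veh, against 9509, 9716 and 11519 in WT-GR Dex and 10936.5, 10556 and 10261 in WT-GR Veh. It was higher in S134A-GR cells, by 0.25 in Dex (adjusted p = 0.0052) and 0.18 in vehicle (adjusted p = 0.0285), with no overlap in either. The vehicle call was lost when S134A-GR Veh replicate 2 or 3 or WT-GR Veh replicate 2 or 3 was left out (adjusted p 0.0701 to 0.0874).

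EIF2AK3 (chr2:88556741-88628145), which encodes PERK, had 1409.6, 1159 and 1204 normalized reads in S134A-GR Dex and 1149.9, 1089.7 and 1231 in S134A-GR Veh. WT-GR cells had 1449, 1319.6 and 1473 with Dex and 1522, 1433 and 1412 with vehicle. It was lower in vehicle (log2 -0.33, adjusted p = 0.00435) and overlapped in Dex (-0.17, adjusted p = 0.0988), where leaving out S134A-GR Dex replicate 1, the highest of its group, gave -0.26 (adjusted p = 0.018). An unnamed antisense gene overlaps 14.4% of its exon bases. ERN1 (chr17:64039142-64130144), which encodes IRE1α, had 656, 646 and 600 normalized reads in S134A-GR Dex and 507, 461 and 542 in S134A-GR Veh, against 876, 643 and 735 in WT-GR Dex and 733, 592 and 542 in WT-GR Veh. It was not called between genotypes (log2 -0.23, 95% interval -0.51 to 0.04, in Dex and -0.30, -0.57 to -0.02, in vehicle). CREB3, another transcription factor released from the ER membrane, was higher in S134A-GR cells by 0.22 in Dex (adjusted p = 0.00338) and 0.34 in vehicle (adjusted p = 0.000152).

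Of the remaining 3 members, WFS1, an ER membrane glycoprotein mutated in Wolfram syndrome, had 11032, 12609 and 12641 normalized reads in S134A-GR Dex and 15383.5, 15178 and 15428 in S134A-GR Veh. It had 10829, 9564 and 8557 in WT-GR Dex and 11049, 11154 and 11535 in WT-GR Veh. It was higher in S134A-GR cells by 0.33 in Dex (adjusted p = 0.00215) and 0.45 in vehicle (adjusted p = 0.000202), and the Dex call was lost without WT-GR Dex replicates 2 and 3 (0.16, adjusted p = 0.0933). SEC24D, a cargo-binding subunit of the COPII coat, was lower in vehicle (-0.20, adjusted p = 0.0288) and not called in Dex (-0.11), and its call was lost without S134A-GR Veh replicate 1 or 2 or WT-GR Veh replicate 1 or 2 (0.0662 to 0.103). SEC61B, a subunit of the protein-conducting channel, was called in neither (0.06 in Dex and 0.14 in vehicle, adjusted p = 0.0536).

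Members with and without the stress elements shown above were set side by side. Of the 9 members with an ERSE or ERSE-II, 6 were lower and 1 higher in S134A-GR cells in Dex (median log2 -0.43), and 7 were lower in vehicle (median -0.26). Of the 22 with neither, 14 were lower and 3 higher in Dex (median -0.23), and likewise 14 and 3 in vehicle (median -0.29). Among all genes tested 26.3% were lower and 23.4% higher in Dex, and 26.7% and 23.8% in vehicle. Both classes held strongly lower genes, HYOU1 and XBP1 in the first and DNAJC3 and PDIA6 in the second, and both held genes near 0.

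Dex moved few members, and the largest change in size among the calls was that of HERPUD1 in WT-GR cells, at 0.50 on the log2 scale. Of the 34, 4 passed in S134A-GR cells, 3 higher and 1 lower, against 15.7% of all genes, 7.99% higher and 7.76% lower. In WT-GR cells 9 of 34 passed, 6 higher and 3 lower, against 27.9% of all genes, 13.9% higher and 14% lower. The share of members called was 11.8% in S134A-GR cells and 26.5% in WT-GR cells, near or below that of all genes. The median log2 change of the members was 0.02 in S134A-GR cells and 0.05 in WT-GR cells, beside -0.02 over all genes in both. Library values of Dex and vehicle did not overlap for 11 members higher and 3 lower in S134A-GR cells (18.2% and 20.4% of all genes) and for 10 higher and 4 lower in WT-GR cells (16.7% and 18.3% of all genes). As a check of exposure, the glucocorticoid target TSC22D3 was at 40399 to 40849 normalized reads in S134A-GR Dex and 1954 to 2246 in S134A-GR Veh, and at 61356 to 63424 in WT-GR Dex and 2865 to 3123 in WT-GR Veh.

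**Figure D4:**
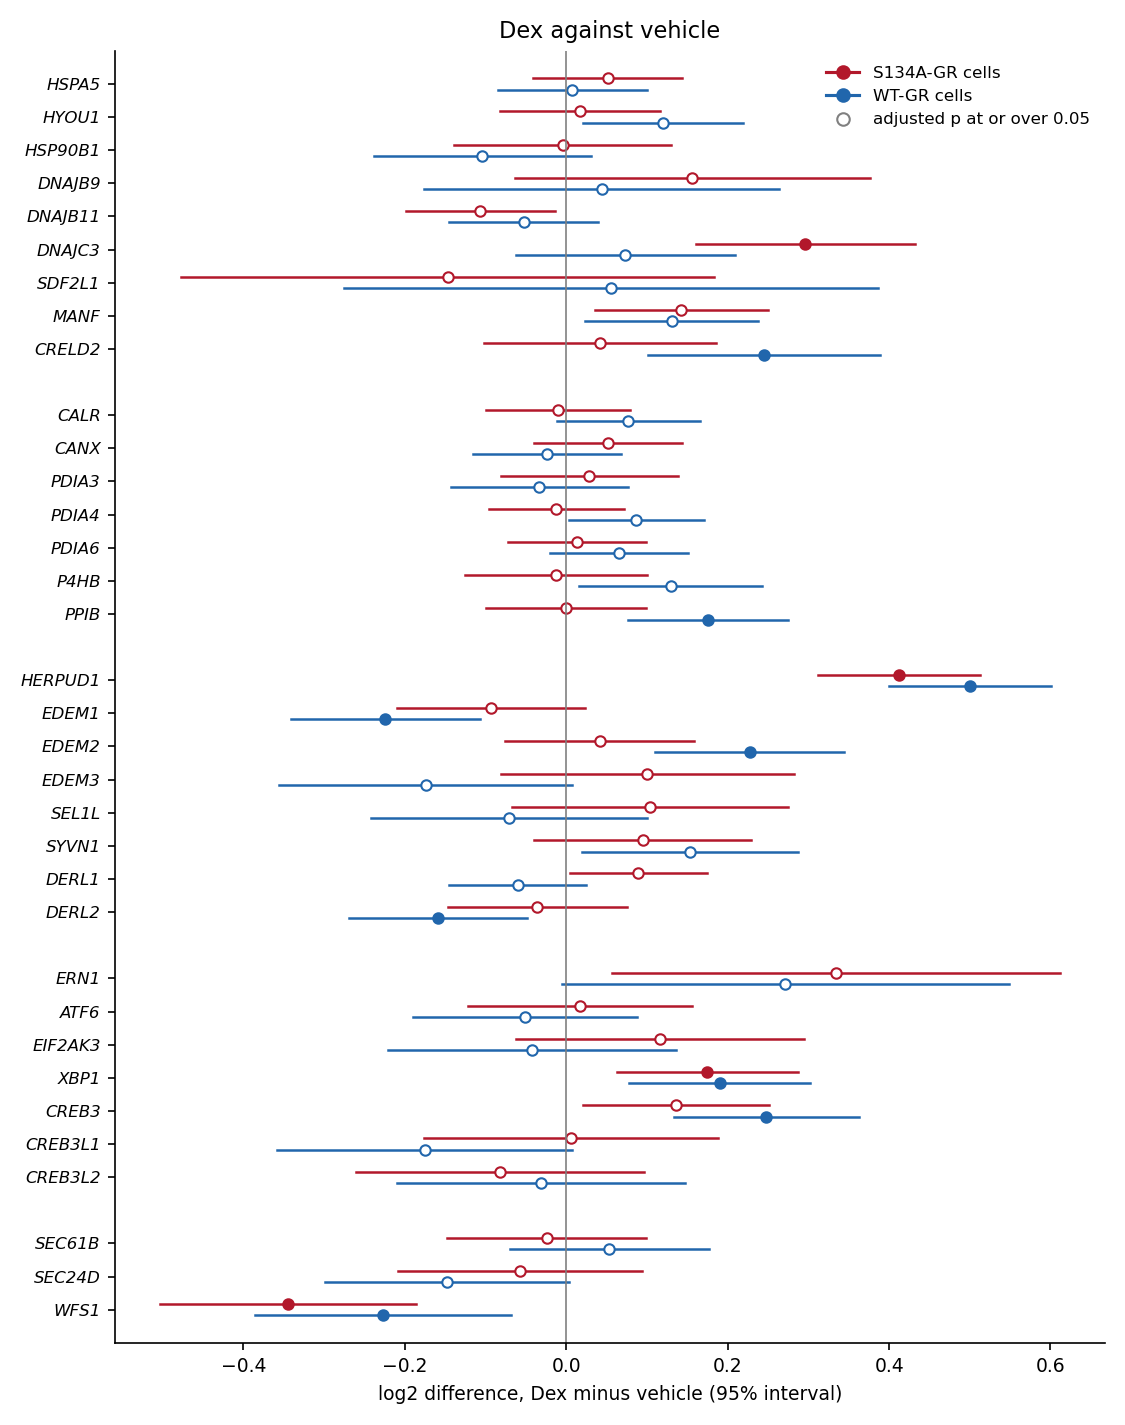
Log2 change of Dex minus vehicle for each member, with 95% intervals, in S134A-GR cells (red) and WT-GR cells (blue); filled points passed the test and open points did not. HERPUD1 lies farthest to the right in both genotypes, at 0.41 and 0.50, and WFS1 farthest to the left, at -0.34 and -0.23.

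HERPUD1, XBP1 and WFS1 were called in both genotypes. Across all genes 5.79% were called higher in both and 5.31% lower in both. HERPUD1 (chr16:56932142-56944864), an ER membrane protein that gathers the SYVN1 degradation complex, had 8669, 8743 and 8871 normalized reads in S134A-GR Dex and 6674, 6705 and 6369.8 in S134A-GR Veh. It had 11267.5, 10802 and 11101 in WT-GR Dex and 7355, 7864 and 8253 in WT-GR Veh. Every Dex library lay above every vehicle library of its genotype. The ratio of means was 1.33 in S134A-GR cells (log2 0.41, SE 0.047, adjusted p = 1.92e-05) and 1.41 in WT-GR cells (log2 0.50, SE 0.047, adjusted p = 3.01e-06). Both calls held under every alternative. The HERPUD1 promoter printed above holds an ERSE-II and neither form of the glucocorticoid element searched.

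XBP1, with the values given above, was higher with Dex by 0.17 in S134A-GR cells (adjusted p = 0.0353) and 0.19 in WT-GR cells (adjusted p = 0.0154), without overlap in either. The S134A-GR call was lost when S134A-GR Veh replicate 1 or 3 or any S134A-GR Dex replicate was left out (adjusted p 0.0607 to 0.135). The WT-GR call was lost without WT-GR Veh replicate 1 (0.0675) and without WT-GR Dex replicates 2 and 3 (0.0651), and scaling by total reads ended both.

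WFS1 was lower with Dex, at -0.34 in S134A-GR cells (adjusted p = 0.00466) and -0.23 in WT-GR cells (adjusted p = 0.0343). The S134A-GR call held under every alternative. The WT-GR call was lost under 9 of them, edgeR with TMM scaling (0.0512) among them, each WT-GR Veh library left out (0.0639 to 0.0828) and WT-GR Dex replicate 2 or 3 left out (0.0771 and 0.0949), and the change was -0.05 without WT-GR Dex replicates 2 and 3. In the WT-GR Dex libraries WFS1 ran from 8557 to 10829, the widest relative spread of any WFS1 group.

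Other Dex calls fell in 1 genotype. DNAJC3 was higher in S134A-GR cells (0.30, adjusted p = 0.00463) and stood at 0.07 in WT-GR cells (95% interval -0.06 to 0.21). In WT-GR cells CREB3 (0.25, adjusted p = 0.0039), CRELD2 (0.24, 0.0153), EDEM2 (0.23, 0.00734) and PPIB (0.18, 0.0124) were higher. EDEM1 (-0.22, adjusted p = 0.00801) and DERL2 (-0.16, 0.0343) were lower there. In S134A-GR cells the same 6 genes stood at 0.14, 0.04, 0.04, -0.00020, -0.09 and -0.04 in that order, none called. Leaving out WT-GR Veh replicate 1 ended the calls of PPIB (0.0579), CRELD2 (0.0628) and DERL2 (0.0924). The CRELD2 call was also lost without WT-GR Veh replicate 2 or WT-GR Dex replicate 1 or 2 (0.0502 to 0.0562), and that of DERL2 without 5 other libraries in turn (0.0501 to 0.106). Of the 9 WT-GR calls, HERPUD1, EDEM1 and CREB3 held under every alternative. Fitting the WT-GR groups alone left 3 calls (8.82% of members, against 15.6% of all genes). Without WT-GR Dex replicate 3 there were 14 (41.2%, against 38.3% of all genes). Without WT-GR Dex replicates 2 and 3 the median log2 change of the members was 0.02, beside -0.01 over all genes.

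The major chaperones and the sensors were not called for Dex. HSPA5 changed by 0.05 in S134A-GR cells (95% interval -0.04 to 0.14) and 0.01 in WT-GR cells (-0.09 to 0.10). ERN1 had wide intervals, at 0.33 in S134A-GR cells (0.06 to 0.61, adjusted p = 0.107) and 0.27 in WT-GR cells (-0.01 to 0.55, adjusted p = 0.134), and its S134A-GR Dex libraries all lay above its S134A-GR Veh libraries. Without WT-GR Dex replicates 2 and 3 the WT-GR value was 0.50, which rests on 1 Dex library. EIF2AK3 stood at 0.12 and -0.04, and ATF6 at 0.02 and -0.05, in S134A-GR and WT-GR cells.

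**Figure D5:**
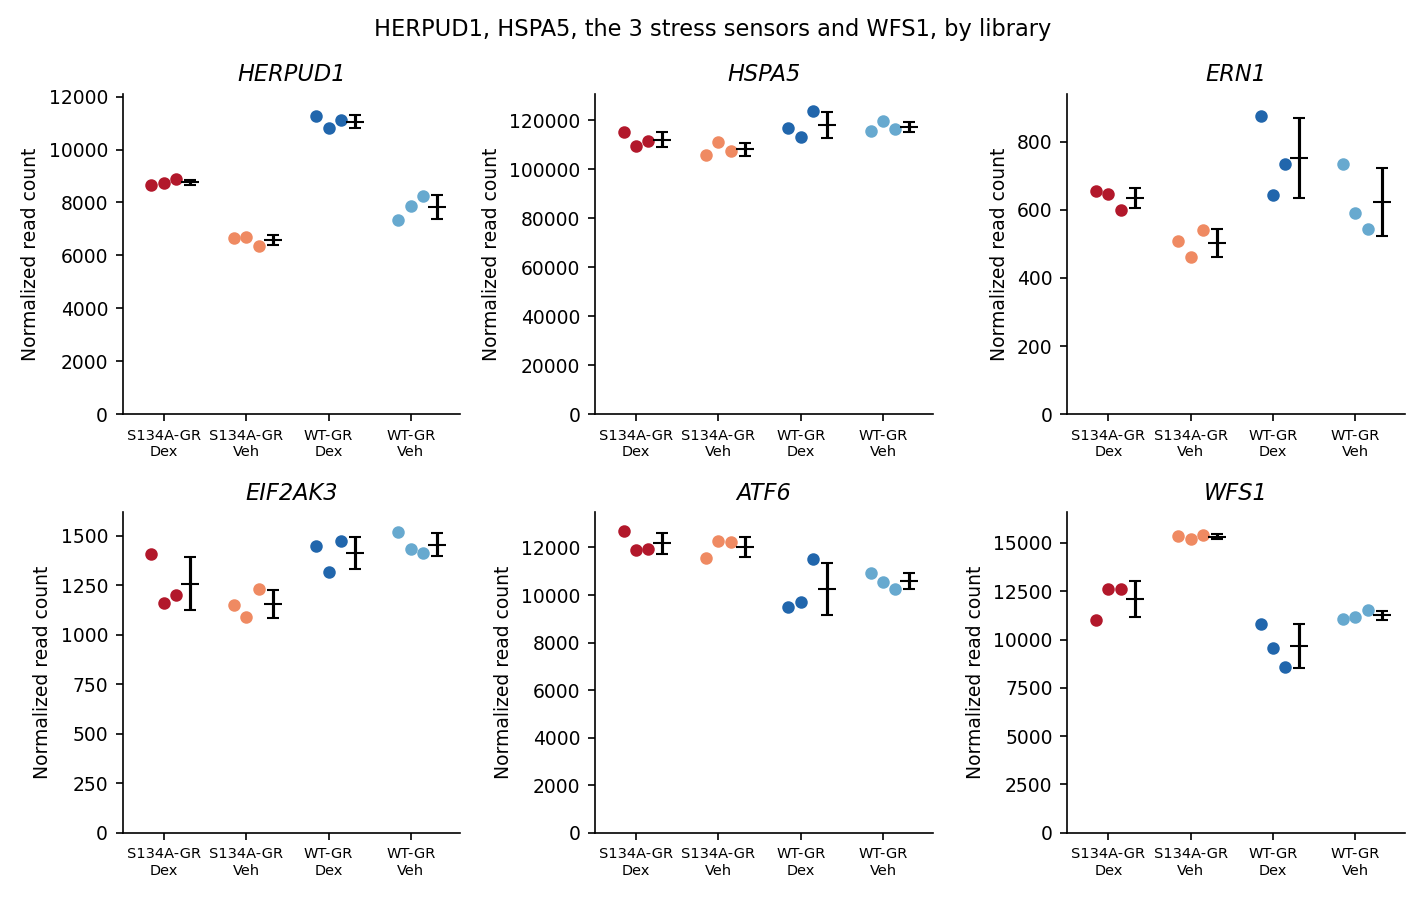
Normalized read count of HERPUD1, HSPA5, ERN1, EIF2AK3, ATF6 and WFS1 in each library (points), with the group mean and SD (n = 3) beside them, in S134A-GR Dex, S134A-GR Veh, WT-GR Dex and WT-GR Veh. HERPUD1 is at 8669 to 8871 in S134A-GR Dex, above the 6370 to 6705 of S134A-GR Veh, and at 10802 to 11268 in WT-GR Dex, above the 7355 to 8253 of WT-GR Veh.

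Whether the Dex response differed between genotypes was tested as a difference of changes, S134A-GR minus WT-GR. None of the 34 members passed in limma, edgeR or DESeq2, against 0.414% of all genes in limma. That background rested on WT-GR Dex replicate 3: limma called 66 genes with it and 1623 without it, where none of the members passed either. At an unadjusted p under 0.05 there were 5 members, 14.7% of them, against 17.5% of all genes. Among the largest differences were EDEM3 at 0.28 (95% interval 0.02 to 0.53, adjusted p = 0.263) and DNAJC3 at 0.22 (0.03 to 0.42, adjusted p = 0.24). CRELD2 and SDF2L1 were both at -0.20, with intervals of -0.41 to 0.00 and -0.67 to 0.26. For HERPUD1 the difference was -0.09 (-0.23 to 0.05), for XBP1 -0.02 (-0.17 to 0.14) and for WFS1 -0.12 (-0.34 to 0.11). The intervals of HERPUD1, XBP1 and WFS1 allow a difference in either direction. Before adjustment those of EDEM3, DNAJC3 and DERL1 (0.15, 0.03 to 0.27) lie above 0. Those of EDEM2 (-0.19, -0.35 to -0.02) and PPIB (-0.18, -0.32 to -0.04) lie below 0. Without WT-GR Dex replicates 2 and 3, which leaves 1 library in that group and assumes that it varies like the others, 4 members passed, 1 higher and 3 lower (11.8%), against 16.2% of all genes tested in that fit.

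Other genes of the pathway were read from 6 lists, of 110 genes in all, of which 109 were tested. Between genotypes their counts leaned the same way as the members': 51 were lower and 14 higher in S134A-GR cells in Dex (46.8% and 12.8%, against 26.3% and 23.4% of all genes), and 49 lower and 20 higher in vehicle (45% and 18.3%, against 26.7% and 23.8%). The PERK and ATF4 arm, with 11 genes, had 6 lower and 2 higher in Dex (54.5% and 18.2%). In vehicle it had 5 lower and 2 higher (45.5% and 18.2%). NUPR1, a stress-induced nuclear protein, averaged 79.4 normalized reads in S134A-GR Dex against 218 in WT-GR Dex (log2 -1.43, adjusted p = 3.6e-05), and 98.7 in S134A-GR Veh against 183.5 in WT-GR Veh (log2 -0.90). TRIB3, a pseudokinase target of ATF4, was lower (-0.77 in Dex, -0.60 in vehicle), while the secreted glycoprotein STC2 was higher in Dex (1.00, adjusted p = 0.00288). STC2 was low, averaging 52.4 normalized reads in WT-GR Dex and 88.7 in WT-GR Veh. In WT-GR cells it was called lower with Dex (log2 -0.78, limma adjusted p = 0.024), with overlapping libraries.

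Of 26 further folding enzymes of the lumen, 13 were lower in each comparison (50%), with 5 higher in Dex and 8 in vehicle (19.2% and 30.8%). Over all genes 26.3% were lower and 23.4% higher in Dex, and 26.7% and 23.8% in vehicle. Both directions held large values. FKBP10, a prolyl isomerase that helps fold collagen, averaged 13082 normalized reads in S134A-GR Dex against 3253 in WT-GR Dex. With vehicle the means were 13217 in S134A-GR Veh against 3180.1 in WT-GR Veh (log2 2.01 and 2.05, adjusted p = 1.94e-10 and 1.55e-10). FKBP11, a prolyl isomerase of secretory cells, was lower (-1.21 in Dex, -0.87 in vehicle). Of 19 other degradation factors tested, 10 were lower and 3 higher in each comparison (52.6% and 15.8%). The lectin ERLEC1 differed most by size (-0.61 in Dex and -0.82 in vehicle).

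The entry and exit of proteins gave similar counts. Of 23 genes of the translocon, signal peptidase and the TRAP complex, 11 were lower in each comparison (47.8%). In Dex 1 was higher and in vehicle 3 (4.35% and 13%). Over all genes 26.3% were lower and 23.4% higher in Dex, and 26.7% and 23.8% in vehicle. The signal peptidase subunit SPCS2 was lower (log2 -0.98 in Dex, -0.91 in vehicle), and so was SRPR, the signal recognition particle receptor (-0.72 in both). SEC61A2, a rarer channel subunit, was higher (0.87 in Dex, 0.69 in vehicle). Of 20 genes of the COPII coat and cargo receptors, 9 were lower and 2 higher in Dex (45% and 10%). In vehicle 8 were lower and 2 higher (40% and 10%). The coat subunit SEC23B stood at -0.48 in Dex and -0.51 in vehicle. A list of 10 genes held the ATF6 and CREB3 family, their processing proteases and the NF-Y factors that bind CCAAT. In each comparison 2 were lower (20%), which is below the share of all genes. In Dex 1 was higher and in vehicle 2 (10% and 20%). The median log2 difference of this list was 0.04 in Dex and -0.12 in vehicle. NFYA was lower (log2 -0.38 in Dex, -0.43 in vehicle).

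With Dex, 6 of the 109 were higher and 2 lower in S134A-GR cells (5.5% and 1.83%, against 7.99% and 7.76% of all genes). In WT-GR cells 17 were higher and 18 lower (15.6% and 16.5%, against 13.9% and 14% of all genes). The lowest log2 change was -2.20 in WT-GR cells and -0.76 in S134A-GR cells, both in the list of the ATF6 and CREB3 family. The median change of that list was only -0.13 in WT-GR cells and -0.10 in S134A-GR cells. CEBPB, a transcription factor and partner of ATF4, had the highest change in both genotypes. It averaged 10702 normalized reads in S134A-GR Dex against 4669.5 in S134A-GR Veh (log2 1.19, adjusted p = 3.3e-06), and 11387 in WT-GR Dex against 3367.5 in WT-GR Veh (log2 1.76, adjusted p = 6.38e-08). PPP1R15A, which restores translation after PERK, was lower in S134A-GR cells (-0.35, adjusted p = 0.00336). None of the 109 passed the test of a difference between the responses in limma, and 28 had an unadjusted p under 0.05 (25.7%, against 17.5% of all genes).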

How the data were processed

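Per the labels' protocols, RNA was purified with a Qiagen kit, and TruSeq libraries were sequenced on a HiSeq instrument from both ends. The submitters' processing notes name FastQC 0.11.7, featureCounts of Subread, DESeq2 1.22.2 and hg38, with no role or order; for the aligner, annotation and strand setting the entry is: not given in the sources used here. The deposited signal is a read count per gene that the authors divided by a size factor, as the values show: 100% were whole multiples of 1 read's value (tolerance 0.01 reads). Recovered depth averaged 85.2 M reads, above the per-sample average that the labels state. Even numbers made up 58.2 to 67.5% of counts from 1 to 20; whether mates were counted singly was not tested.

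The Dex tables list 26485 names beside 19907 values, and on 8 lines alone the name equals that of the vehicle tables. Across genes, each Dex library followed the mean of the vehicle libraries when matched by line (Pearson r of log2 values 0.9822 to 0.9860) and not when matched by name (-0.0059 to -0.0040), so the vehicle names were used by line order. Sample columns left unused numbered 0.

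limma 3.58.1 (R 4.3.3) with a mean-variance trend was fitted to log2(value + 1) in 1 model of all 12 libraries with a mean per group. Genes needed 10 or more in 3 or more libraries, which left 15957. Tests were two-sided, and a call is a Benjamini-Hochberg adjusted p under 0.05 over all genes tested. Adjusted p-values are limma's unless another tool is named. This scale understates changes of low genes. Alternatives were pseudocounts of 0.5 and 5, no filter, edgeR 4.0.16 on recovered reads with TMM or library size alone, DESeq2 1.42.0, a replicate block, library weights, only the groups compared, and leaving out libraries. On recovered reads, TMM-scaled edgeR passed 2528 genes for Dex in S134A-GR cells, 4440 in WT-GR cells, 61 for their difference, 7855 for genotype in Dex and 8021 in vehicle. The fits were tested on simulated data.

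The members and lists were chosen with earlier results of these data known. Values per library are given for members called with a log2 change of at least 0.5 in size, the 3 sensors, HSPA5 and XBP1, and for WFS1, added after its values were seen; of other lists, up to 3 called genes with the largest changes were named. Promoters and gene coordinates are from RefSeq (GRCh38.p14), matched by symbol, and exon lengths and overlaps from GENCODE release 29.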

Additional observations from a re-analysis of the deposited data

How the results depend on the processing

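Of the members called, 17 of 25 for genotype in Dex, 19 of 26 in vehicle, 3 of 4 for Dex in S134A-GR cells and 3 of 9 in WT-GR cells held under every alternative. With a replicate block these counts were 24, 25, 4 and 7 (70.6%, 73.5%, 11.8% and 20.6%), with 0 for the difference of responses. That block called 46.9%, 47.6%, 13.4% and 23.7% of all genes, and 0.157% for the difference. Same-numbered libraries did not deviate together (r = -0.0852 to 0.0551 over 18 pairs, 1 library closest to its own number). Whether they were prepared together cannot be read from these values. With 1 library left out, the counts ran from 22 to 25 for genotype in Dex and 19 to 28 in vehicle. For Dex they ran from 3 to 5 in S134A-GR cells and 6 to 14 in WT-GR cells (14 without WT-GR Dex replicate 3). They stayed at 0 for the difference. The shares of all genes called in those fits ran from 43% to 51.3%, 42.6% to 55.4%, 11.3% to 19.2% and 18.7% to 38.3%, in that order. Library weights gave 11 calls for Dex in S134A-GR cells (32.4%, against 32.1% of all genes) and 16 in WT-GR cells (47.1%, against 44.6%). For the difference they gave 8 (23.5%, against 17.9%). The weights ran from 0.2 to 11.2, and their estimate stopped before it converged. Fitting only the groups compared gave 3 calls for Dex in WT-GR cells (8.82%, against 15.6% of all genes). Without WT-GR Dex replicates 2 and 3, 4 members were called for the difference. Over all genes, limma called 66 for the difference, against 506 by DESeq2, 25 with the replicate block, 2854 with library weights, 2565 without WT-GR Dex replicates 2 and 3, and 26 to 1623 with 1 library left out (1623 without WT-GR Dex replicate 3). For Dex in WT-GR cells it called 4455 genes, against 7113 with library weights and 2490 with only the groups compared, and in S134A-GR cells 2513, against 5116 with library weights.

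Signs were compared for the members called in each comparison and for HSPA5, XBP1 and the 3 sensors in all of them; those that turned were not called in limma. Scaling by library size gave a median over the members of -0.00104 for Dex in S134A-GR cells and -0.0114 in WT-GR cells, where limma gave 0.02 and 0.05. It gave HSPA5 -0.054 for Dex in WT-GR cells and 0.0417 for genotype in Dex, ATF6 -0.00711 for Dex in S134A-GR cells, and XBP1 0.0255 for the difference. Library weights gave HSPA5 -0.0513 for Dex in WT-GR cells and XBP1 0.0285 for the difference. Without WT-GR Dex replicates 2 and 3, HSPA5 was -0.00442 for Dex in WT-GR cells and ERN1 -0.169 for the difference. With 1 library left out, Dex in WT-GR cells ran from -0.028 to 0.0366 for HSPA5 and from -0.0731 to 0.00602 for EIF2AK3, Dex in S134A-GR cells from -0.0128 to 0.0334 for ATF6, and the difference from -0.0607 to 0.179 for ERN1 and from -0.0515 to 0.0431 for XBP1. The causes were not tested. The lowest library value of any member was 461 normalized reads; whether depth or the number of libraries limits the calls was not tested.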
